A study of Caenorhabditis elegans with 6 samples.

Results

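The genes described here encode the factors that start and extend protein chains on the cytosolic ribosome of the nematode Caenorhabditis elegans. Members were the rows of the deposited table whose single annotated gene symbol begins with eif-, ife-, iff-, ifg-, eef- or eft- followed by a digit, with the row of highest mean signal over the 6 arrays kept for a gene, so rows were selected on mean signal, and the list itself was chosen by a rule written with results of these data in view. The rule found 35 genes of 25478 with such a row, 31 of them initiation factors and 4 elongation factors by symbol, and each had 1 row. No gene with an eft- symbol was found. A further 3 rows listed a fitting symbol beside a second gene and were left out, and with them the elongation factor that brings aminoacyl-tRNA to the ribosome.

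Whole hermaphrodites of the wild-type strain N2 were raised on bacterial plates for 48 h to the L4 larval stage. They were then kept in M9 salt buffer (50%) for 24 h at 20 °C. The buffer of 3 samples carried C-SPIONs, superparamagnetic iron oxide nanoparticles with a citrate coat, at 500 µg/mL. The buffer of the 3 control samples had none. Control 3 bears the source name of control 2 in the labels and was taken as a separate sample from its title; these 2 arrays correlated at 0.956 across clusters, against 0.969 for controls 1 and 2. All animals shared the transfer from plates to buffer, so each comparison is of buffer with particles against buffer alone.

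Protein synthesis begins when eIF2 carries the initiator tRNA to the small ribosomal subunit, where eIF3 holds the assembly together, and the cap-binding eIF4E and its scaffold eIF4G bring in the mRNA. The exchange factor eIF2B recharges eIF2 after each round and is the point at which stress kinases slow initiation. Elongation then runs on eEF1, which delivers aminoacyl-tRNAs, and eEF2, which moves the ribosome along. In C. elegans several of these factors exist as separate copies, and ife-1, ife-3, ife-5 and iff-1 are known for roles in the germ line.

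Values are log2 RMA signals, so a difference of 1 is a doubling. RMA sets them against the rest of that array's transcripts, so a change of total RNA is not seen. The 6 arrays correlated with each other at 0.935 to 0.969 across 26192 transcript clusters with a gene symbol, which are not independent replicates, and their medians were 4.91 to 5.19. C-SPION 1 correlated at 0.9353 with C-SPION 2 and 0.9487 with C-SPION 3, and at 0.9593, 0.9425 and 0.9416 with controls 1 to 3. It was thus closer to control 1 than to the arrays of its own group. C-SPION 2 and C-SPION 3 correlated at 0.9633. Detection calls were not used here, so how far a signal stands above background is unknown, and precision is limited by having 3 arrays a group. In whole animals more cells of a tissue and more RNA per cell cannot be told apart.

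Most translation factor genes had slightly higher signals in the C-SPION arrays. The difference, C-SPION minus control, was positive for 30 of the 35 members, against 53.3% of all tested clusters. Its median was +0.24 over the members and +0.04 over all clusters, and the members ran from -0.25 for iff-2 to +0.82 for eif-3.D. No member passed the test. With limma and Benjamini-Hochberg adjustment over all 26192 clusters, 0 of 35 members had an adjusted p under 0.05, as did 0% of the clusters, and the smallest among the members was 0.316, for ifg-1. With no adjustment, 7 higher members had p under 0.05, eif-3.D, eif-3.H, eif-3.I, ifg-1, ife-3, eif-4A3 and eif-6, and 0 lower members did, where 5.22% of all clusters were higher and 7.3% lower at that limit. The C-SPION arrays all lay above the control arrays in 15 members, against 9.4% of the clusters, and all below in 0 members, against 9.24%. Since the members were chosen with earlier results of these data known, these counts are a description.

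**Figure D1:**
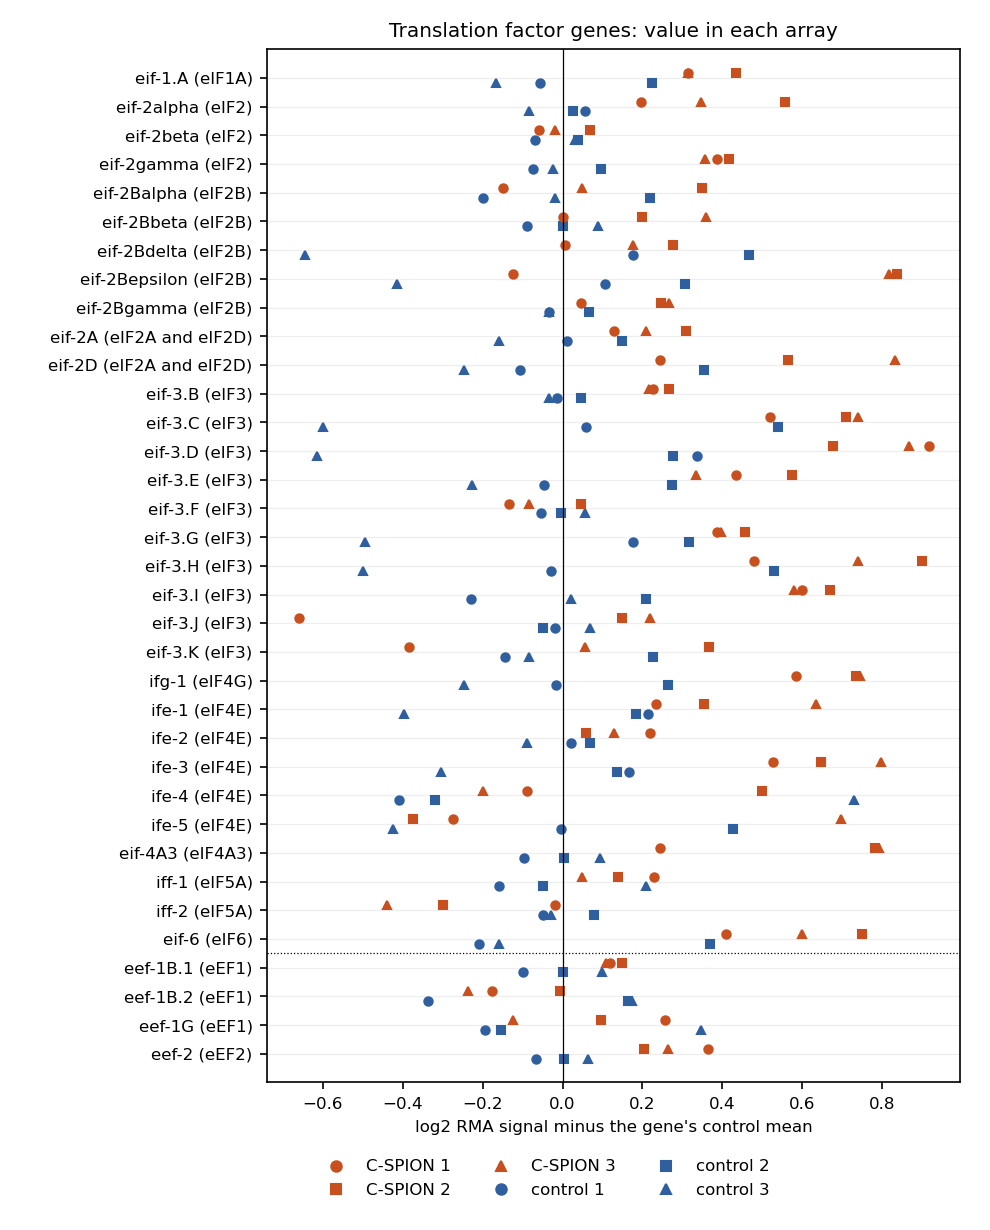
Log2 RMA signal of each of the 35 genes in each array, minus that gene's control mean, with C-SPION arrays in orange above control arrays in blue. Marker shape gives the replicate number, which was not taken to pair arrays, and the dotted line divides the 31 initiation from the 4 elongation factor genes. In 15 genes every orange point lies to the right of every blue one.

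Among the clusters with a mean signal over 7, a limit chosen after values were seen, 56.2% had a positive difference, as did 26 of the 31 members in that range. Of these 6577 clusters, 1054 had every C-SPION array above every control and 879 had every one below, against 15 and 0 of the 31 members. At an unadjusted limma p under 0.05, 519 of the clusters were higher and 652 lower, against 7 and 0 of the 31 members. The plot of cumulative differences shows the members to the right of all clusters over most of the range, with an upper end no farther out.

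**Figure D2:**
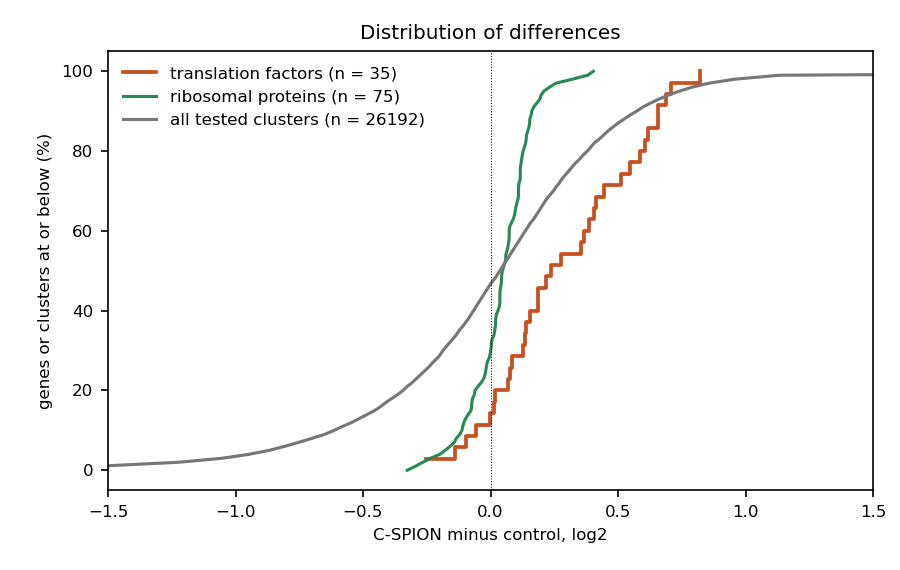
Cumulative share of genes or clusters, in percent, by the log2 difference, C-SPION minus control, for the 35 translation factor genes, 75 cytosolic ribosomal protein genes and all 26192 tested clusters, the horizontal axis being limited to -1.5 to 1.5. The orange steps reach their median at +0.24, against +0.05 for ribosomal proteins and +0.04 for all clusters.

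The cap-binding complex held some of the larger differences. The single eIF4G gene ifg-1, the scaffold between cap, helicase and eIF3, had 8.57, 8.72 and 8.73 in C-SPION 1 to 3, against 7.97, 8.25 and 7.74 in controls 1 to 3. The lowest C-SPION array was 0.32 above the highest control, which makes a difference of +0.69, or 1.61-fold, with a 95% interval of 0.19 to 1.18 and a limma adjusted p of 0.316. It was the only member with an unadjusted p under 0.05 whichever array was left out, at +0.56 to +0.82.

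Of the 5 eIF4E genes, ife-3, the closest worm relative of the general mammalian eIF4E and a gene needed in the germ line, differed most. Its signal was 9.92, 10.04 and 10.19 in C-SPION 1 to 3, against 9.56, 9.53 and 9.09 in controls 1 to 3. The groups lay 0.36 apart, and the mean difference was +0.66 (limma adjusted p = 0.334, 95% interval 0.15 to 1.17).

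The germ line eIF4E gene ife-1, whose product binds the P granule protein PGL-1 and serves sperm formation, had 8.11, 8.23 and 8.51 with C-SPIONs, against 8.09, 8.06 and 7.48 in controls. Its groups lay only 0.02 apart, control 3 being the low array, and the difference of +0.41 (95% interval -0.17 to 0.99) was +0.21 without control 3. The somatic eIF4E gene ife-2, known for longer life when lost, had 7.98, 7.82 and 7.89 with C-SPIONs, against 7.78, 7.83 and 7.67 in controls. Its arrays overlapped and the difference was +0.14 (95% interval -0.29 to 0.56).

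The remaining cap-binding genes gave no clear direction. For ife-4, an eIF4E gene of neurons and muscle, the signal was 6.40, 6.99 and 6.29 with C-SPIONs and 6.08, 6.17 and 7.22 in controls, a difference of +0.07 (95% interval -0.79 to 0.93). For ife-5, a germ line eIF4E gene and the dimmest member, it was 4.52, 4.42 and 5.49 with C-SPIONs and 4.79, 5.22 and 4.37 in controls, a difference of +0.02 (95% interval -0.83 to 0.87). Within each array ife-3 minus ife-2 was 1.94, 2.22 and 2.30 with C-SPIONs, against 1.78, 1.70 and 1.42 in controls, higher in every C-SPION array than in any control. The pair was chosen after the values were seen.

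**Figure D3:**
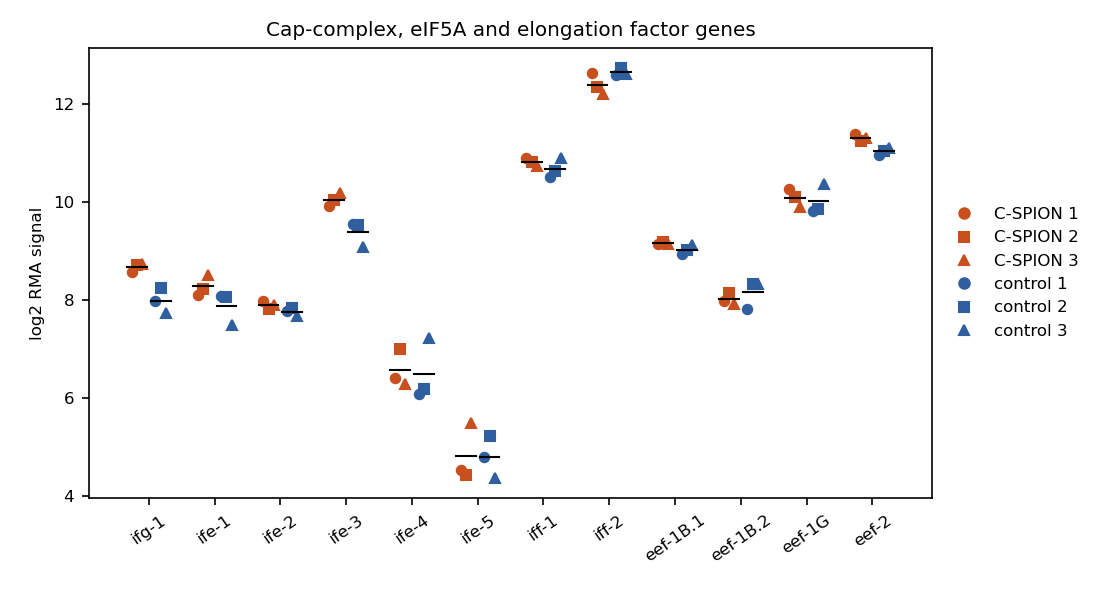
Log2 RMA signal of the eIF4G, eIF4E, eIF5A and elongation factor genes in each array, with C-SPION arrays in orange left of control arrays in blue and black lines at group means. Orange and blue points are separate for ifg-1, ife-1, ife-3, eef-1B.1 and eef-2 and overlap for the others, and levels of different genes are not comparable because their probes differ.

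The scaffold complex eIF3 had 10 members under eif-3 symbols, 8 higher and 2 lower, with a median difference of +0.43. Its subunit genes egl-45 and cif-1, outside the rule, are given further below. The subunit gene eif-3.D had 9.23, 8.99 and 9.18 in C-SPION 1 to 3, against 8.65, 8.59 and 7.70 in controls 1 to 3. Every C-SPION array was above every control, and the difference was +0.82 (95% interval 0.13 to 1.51, limma adjusted p = 0.351). The subunit gene eif-3.I had 8.64, 8.71 and 8.62 with C-SPIONs, against 7.81, 8.25 and 8.06 in controls, which is +0.62 (limma adjusted p = 0.330, 95% interval 0.15 to 1.09). Its groups lay 0.37 apart, the widest gap among the 35 members.

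In 2 further eIF3 genes with large differences the groups overlapped. The subunit gene eif-3.H had 9.17, 9.59 and 9.43 with C-SPIONs, against 8.66, 9.22 and 8.19 in controls (difference +0.71, 95% interval 0.0049 to 1.41, limma adjusted p = 0.396). The core subunit gene eif-3.C had 8.94, 9.13 and 9.16 with C-SPIONs, against 8.48, 8.96 and 7.82 in controls (difference +0.66, 95% interval -0.07 to 1.38). Control 2 reached above C-SPION 1 in both genes, and control 3 was far below the other controls.

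The values of this complex rested in part on control 3. It was the lowest of the 6 arrays in 6 of the 10 eif-3 genes, and without it the median difference of the 10 was +0.28 in place of +0.43. Without control 3 the difference was +0.51 for eif-3.D, +0.46 for eif-3.H, +0.36 for eif-3.C and +0.17 for eif-3.G, which stood at +0.41 with all arrays. For eif-3.I, at +0.62 with all arrays, it was +0.63 without that array.

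The other eIF3 genes ranged down to slightly below 0. The subunit genes eif-3.E and eif-3.B were at +0.45 and +0.24 with groups apart, and eif-3.K at +0.01. The subunit gene eif-3.F had 9.89, 10.07 and 9.94 with C-SPIONs, against 9.97, 10.02 and 10.08 in controls (difference -0.06, 95% interval -0.48 to 0.37). It turned to +0.03 with arrays centred on their medians or quantile-normalised. The loosely bound subunit gene eif-3.J had 7.77, 8.58 and 8.65 with C-SPIONs, against 8.41, 8.38 and 8.50 in controls (difference -0.10, 95% interval -0.75 to 0.55). Here C-SPION 1 alone was low, and without it the difference was +0.185. The eIF3 genes were not uniform. Within each array eif-3.D minus eif-3.F was -0.66, -1.08 and -0.76 with C-SPIONs, against -1.32, -1.43 and -2.38 in controls, a pair chosen after the values were seen.

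The 3 subunits of eIF2 also differed among themselves. The genes for the alpha subunit, which stress kinases phosphorylate, and for the gamma subunit, which binds GTP, were at +0.37 (eif-2alpha, 95% interval -0.09 to 0.82) and +0.39 (eif-2gamma, 95% interval -0.04 to 0.81), both with groups apart. The beta subunit gene eif-2beta had 10.12, 10.25 and 10.16 with C-SPIONs, against 10.11, 10.22 and 10.21 in controls, a difference of -0.0033 (95% interval -0.42 to 0.42). Within each array eif-2gamma minus eif-2beta was -0.37, -0.47 and -0.44 with C-SPIONs, against -0.82, -0.76 and -0.87 in controls. No array of one group reached the range of the other in that pair, which was chosen after the values were seen.

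All 5 genes of the exchange factor eIF2B had positive differences, and none had its groups apart or an unadjusted p under 0.05. Their range was +0.08 for eif-2Balpha to +0.51 for eif-2Bepsilon, which encodes the catalytic subunit and stood between +0.30 (without control 3) and +0.83 (without C-SPION 1) when an array was left out, with eif-2Bdelta at +0.15 and eif-2Bbeta and eif-2Bgamma both at +0.19. As a mean over the complex, C-SPION 1 stood at -0.04 relative to the control mean, C-SPION 2 at +0.38 and C-SPION 3 at +0.33, and control 2 at +0.21. Genes of the alternative tRNA-delivering factors eIF2A and eIF2D were at +0.22 (eif-2A) and +0.55 (eif-2D), with overlapping groups. The eIF1A gene eif-1.A, whose product acts in scanning for the start codon, was at +0.35 with groups 0.09 apart.

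Among factors that act outside the core of initiation, eif-4A3 and eif-6 were higher in every C-SPION array than in any control. The gene eif-4A3, which encodes the helicase of the exon junction complex deposited on spliced mRNAs, had 7.27, 7.81 and 7.82 in C-SPION 1 to 3, against 6.93, 7.03 and 7.12 in controls 1 to 3. Its groups lay 0.15 apart, and the mean difference was +0.61 (limma adjusted p = 0.362, 95% interval 0.08 to 1.14). The gene eif-6, whose product keeps the large ribosomal subunit from joining too early, was at +0.59 (95% interval 0.03 to 1.14, limma adjusted p = 0.380), with groups only 0.04 apart.

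The eIF5A genes, named for initiation although eIF5A is known to act mainly in elongation and termination, had opposite signs. The germ line copy iff-1 had 10.91, 10.82 and 10.73 with C-SPIONs, against 10.52, 10.63 and 10.89 in controls (difference +0.14, 95% interval -0.32 to 0.60). The somatic copy iff-2 had 12.63, 12.35 and 12.21 with C-SPIONs, against 12.60, 12.73 and 12.62 in controls (difference -0.25, 95% interval -0.72 to 0.22), the most negative among the members. Both genes had overlapping groups. Within each array iff-2 minus iff-1 was 1.72, 1.53 and 1.48 with C-SPIONs, against 2.08, 2.10 and 1.73 in controls, so C-SPION 1 and control 3 were only 0.01 apart, at the resolution of the deposited values.

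**Figure D4:**
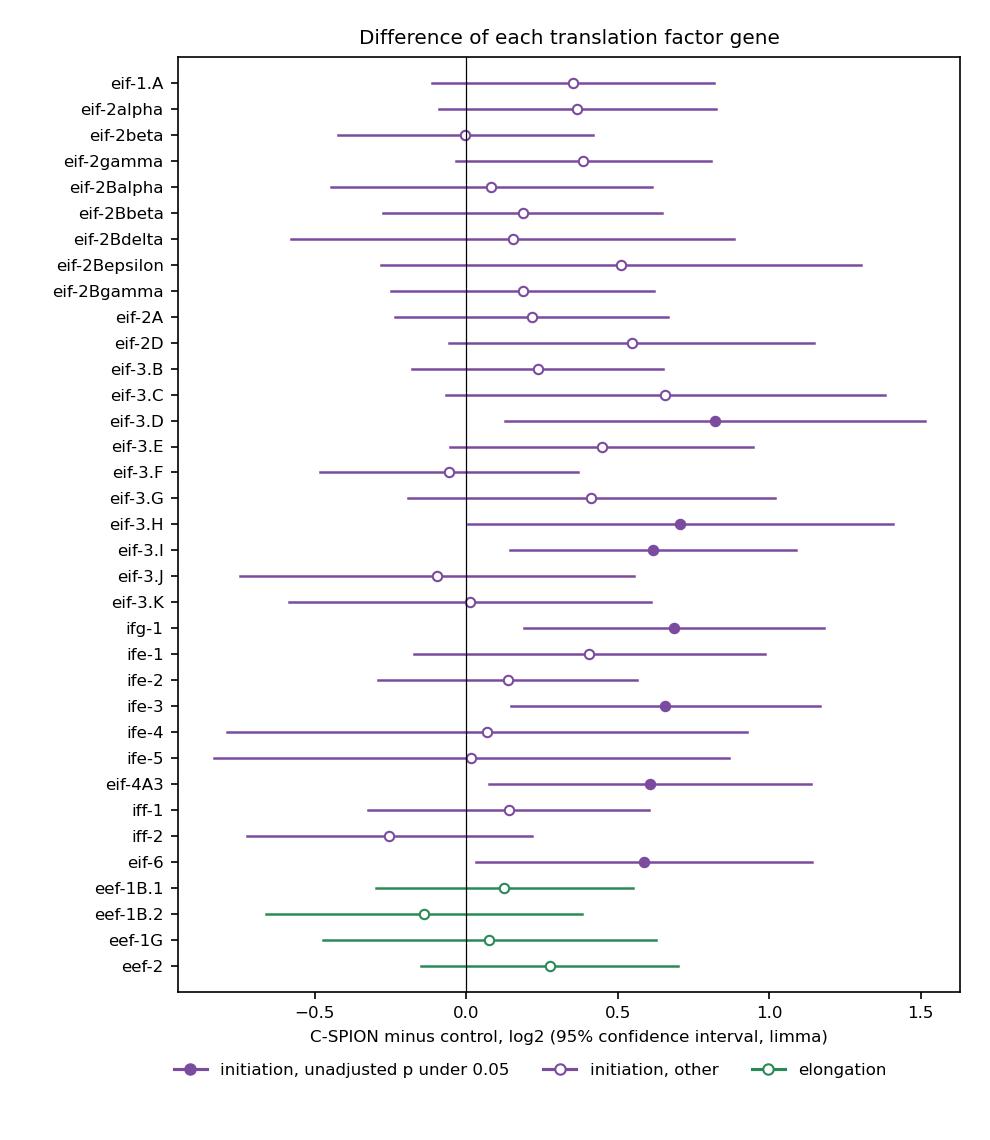
Log2 difference, C-SPION minus control, for each of the 35 genes, with 95% confidence intervals from limma, initiation factors in purple and elongation factors in green. Filled points mark the 7 genes with an unadjusted p under 0.05, all of them initiation factors, and none passed after adjustment.

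The 4 elongation factor genes had a median difference of +0.10, against +0.35 for the 31 initiation genes. None had an unadjusted limma p under 0.05, against 7 of the 31. All C-SPION arrays lay above all controls in 2 of the 4 and in 13 of the 31. The gene eef-2, for the translocase, had 11.40, 11.24 and 11.30 in C-SPION 1 to 3, against 10.97, 11.04 and 11.10 in controls 1 to 3 (difference +0.28, 95% interval -0.15 to 0.70, limma adjusted p = 0.556). Its groups lay 0.14 apart. Of the genes for the exchange factor that recharges eEF1A, eef-1B.1 had 9.15, 9.18 and 9.14 with C-SPIONs, against 8.93, 9.03 and 9.13 in controls (difference +0.13, 95% interval -0.30 to 0.55), a gap of 0.01 between groups.

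The other two eEF1 genes overlapped between groups. For eef-1B.2 the signal was 7.98, 8.15 and 7.92 with C-SPIONs and 7.82, 8.32 and 8.33 in controls (difference -0.14, 95% interval -0.66 to 0.38). For eef-1G, the gamma subunit, it was 10.27, 10.11 and 9.89 with C-SPIONs and 9.82, 9.86 and 10.36 in controls (difference +0.08, 95% interval -0.47 to 0.62). Control 1 was the lowest array in all 4 elongation genes, and without it eef-1G was at -0.02.

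Initiation was then set against elongation as a mean per array. The 31 initiation genes averaged 8.64 ± 0.12 with C-SPIONs and 8.32 ± 0.17 in controls (SD, n = 3 arrays each), a difference of +0.32, and the 4 elongation genes 9.64 ± 0.07 with C-SPIONs and 9.56 ± 0.17 in controls, a difference of +0.09. The difference between these differences was +0.23. Both class means overlapped between groups. For initiation C-SPION 1 lay at 8.4948, just below control 2 at 8.4961, and for elongation control 3 was the highest array at 9.73. Relative to the control mean, initiation minus elongation stood at +0.03, +0.29 and +0.37 in C-SPION 1 to 3, against +0.15, +0.17 and -0.32 in controls 1 to 3. The groups overlapped, C-SPION 1 lying below controls 1 and 2. Without control 3 the difference between differences was +0.07. With the eIF5A genes counted as elongation factors, a choice made after the values were seen, it was +0.30. Only 4 elongation genes fitted the rule, and the eEF1A genes, on rows listing more than 1 symbol, were left out. A score over genes chosen with results known was given no p.

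Other translation genes were taken from a list of 42 measured genes. On it 35 were higher and 7 lower, with a median of +0.47, where 53.3% of all tested clusters were higher. None passed by limma after adjustment, and 12 higher and 0 lower had an unadjusted p under 0.05. Of all clusters 5.22% were higher and 7.3% lower at that limit. Of the 6 with the smallest p, gars-1 (+0.85), wars-1 (+0.63) and aars-2 (+0.70) encode the tRNA synthetases for glycine, tryptophan and alanine. The others were ifet-1 (+0.71), an eIF4E-binding repressor of the germ line, erfa-3 (+0.83), a termination factor, and tsfm-1 (+0.62), a mitochondrial elongation factor, and the 6 had adjusted p from 0.302 to 0.348. All 20 tRNA synthetase genes had positive differences, from +0.20 to +0.85, and the 3 termination and recycling genes had +0.67 to +0.83. Of the 9 signalling genes 4 were higher and 5 lower, among them gcn-1 at +0.71 and efk-1, the eEF2 kinase gene, at -0.18. Factor genes with older names, listed after the symbols were seen, were positive too: egl-45 (eIF3 subunit) at +0.76, inf-1 (eIF4A) at +0.45, cif-1 (eIF3 subunit) at +0.43 and drr-2 (eIF4H) at +0.33. The 75 cytosolic ribosomal protein genes had a median of +0.05, 52 of them higher, and 0 had an unadjusted p under 0.05 in either direction.

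**Figure D5:**
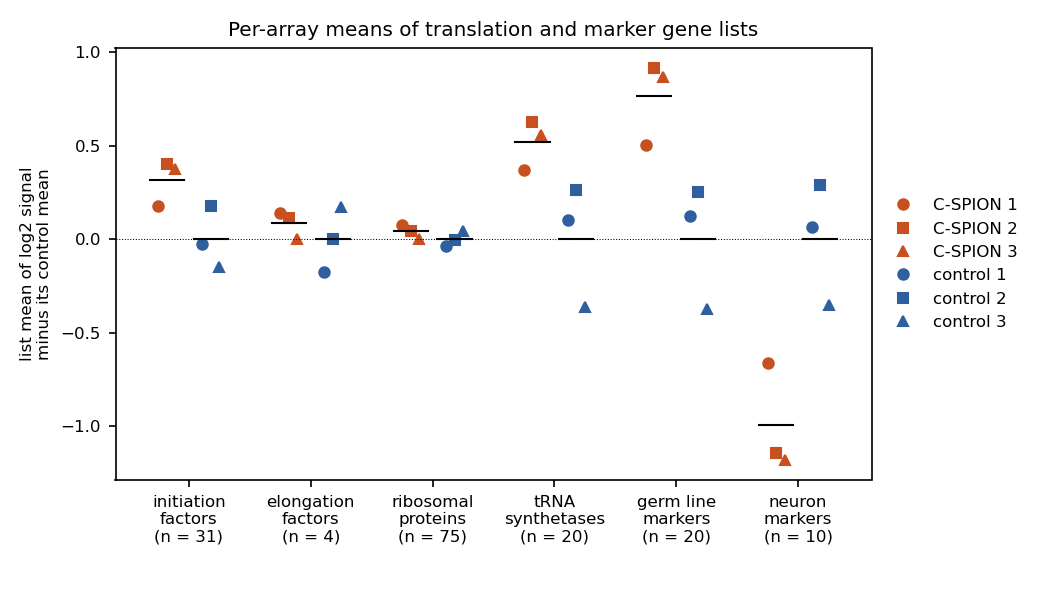
Mean log2 signal of each gene list in each array minus the list's control mean, with C-SPION arrays in orange left of control arrays in blue and black lines at group means. Initiation factors stand at +0.18, +0.40 and +0.37 in C-SPION 1 to 3, and tRNA synthetases and germ line markers share with them a lower C-SPION 1 and a low control 3. Neuron markers share the low control 3, while their C-SPION 1 is the highest of the C-SPION arrays.

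Tissue markers also differed between these arrays, where 53.3% of all tested clusters had a positive difference. The 20 germ line markers, all measured, had positive differences, with a list mean of +0.50, +0.92 and +0.87 in C-SPION 1 to 3 and +0.12, +0.25 and -0.37 in controls 1 to 3, relative to the control mean. In the same arrays the initiation genes stood at +0.18, +0.40 and +0.37 with C-SPIONs and -0.03, +0.18 and -0.15 in controls. Control 3 was lowest and control 2 highest of the controls, and C-SPION 1 lowest of the C-SPION arrays, on both lists. The initiation mean of C-SPION 1, 8.4948, lay just below that of control 2, 8.4961, so the groups overlapped on it. The 10 neuron markers were all lower, at -0.66, -1.14 and -1.18 with C-SPIONs and +0.06, +0.29 and -0.35 in controls. Of the 8 body muscle markers 8 were lower, with a median of -0.48, of 7 intestine markers 5, with a median of -0.11, and of 8 hypodermis markers 4, with a median of -0.01. The neuron, body muscle, intestine and hypodermis lists had the same order of controls 2 and 3. In none of them was C-SPION 1 the lowest C-SPION array. The part of tissue composition in the translation factor values was not tested.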

How the data were processed

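Per the submitters' processing notes, the authors made the deposited log2 signals with RMA (background correction, normalisation between arrays, probe summary) in Affymetrix Expression Console, 1 value for each transcript cluster on each array. The version used was not given. Per the labels' protocols, RNA came from bead-beaten animals, and 200 ng was amplified to biotin-labelled cDNA. Of 29317 clusters, 26192 with a gene symbol were tested; 25546 had 1 symbol, and 25495 of these matched the RefSeq table of assembly WBcel235, where all 35 members kept their names. No coordinates are given, since no source used here names the array's genome build.

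The C-SPION and control groups were compared by two-sided limma 3.58.1 tests (lmFit and eBayes with a group term, R 4.3.3), adjusted over all 26192 clusters. The members and lists were chosen with earlier results of these data known. The labels do not say whether samples were separate cultures, so the spread behind each p-value may be technical. By the naming rule, every array's value is given for elongation, ife-, iff- and ifg- genes and for the 5 eif- genes with the largest differences in each direction (3 were negative); other members are given by complex, and of the other translation genes up to 6 by smallest p. On simulated arrays, limma on 26192 clusters recovered 0% of 200 changes of 2-fold, 58% of 4-fold and 89.5% of 8-fold. The simulated noise was independent between arrays, with the observed spreads shuffled among clusters, so these shares are not specific to the members. As alternatives each array was left out, and a replicate block, other normalisations, filters, eBayes options, weights, thresholds and member choices were tried.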

Additional observations from a re-analysis of the deposited data

How the results depend on the processing

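No member passed the adjusted threshold under any alternative run, the smallest limma adjusted p being 0.128. Of all 26192 clusters, 63 passed it without C-SPION 1, and 0 with any other single array left out. With every array kept, 7 members had an unadjusted p under 0.05. Leaving out an array gave 2 to 9 such members, fewest without C-SPION 3, with 3 without control 1 or C-SPION 2. The share of all clusters higher at that limit, 5.22% with every array kept, moved as well. It fell to 2.81% when C-SPION 3 was dropped, to 3.84% for C-SPION 2 and to 4.1% for control 1. Dropping control 2 gave 4.13% of clusters but 9 members, and dropping control 3 gave 4.54% and 5 members. For C-SPION 1 the share rose to 7.51%, with 8 members. The count of higher members stayed between 26 and 32, their median difference between +0.20 and +0.33, and initiation minus elongation between +0.07 and +0.33, in every alternative run. The 32 arose with quantile normalisation, where 53.0% of all clusters were higher, and with median centring, where 62.2% were. Median centring also gave the +0.33, and there the median over all clusters was +0.13, against +0.04 with the deposited values. Of 525 recomputed member differences 25, in 9 members, reversed sign and 500 did not. The 500 include eef-1G without control 2, at 8.4e-16, which is no difference beyond rounding. A replicate block, other eBayes options and other filters cannot move a difference, so part of the 500 was fixed in advance. eif-2beta was at +0.086 after quantile normalisation, +0.087 after median centring and +0.0082 with array weights. eif-3.F was at +0.026 after quantile normalisation and +0.033 after median centring, and eif-3.J at +0.085 with array weights. Median centring adds the same amount to every cluster's difference. The cause of the other reversals was not tested. Leaving out an array gave -0.02 to +0.25 for eef-1G, -0.05 to +0.20 for eif-2Balpha, -0.17 to +0.39 for eif-2Bdelta, -0.04 to +0.025 for eif-2beta, -0.255 to +0.185 for eif-3.J, -0.16 to +0.21 for eif-3.K, -0.145 to +0.435 for ife-4 and -0.32 to +0.23 for ife-5. Each member had 1 row and an unchanged symbol, so averaging rows or updating symbols altered nothing.

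Samples share replicate numbers. Deviations of same-numbered arrays correlated at 0.22, 0.20 and 0.0079, and those of differently numbered arrays at -0.27 to +0.06. The numbers were not taken to pair arrays, a question these values do not settle. With a replicate block 0 members passed, and 7 stood at an unadjusted p under 0.05, where 5.49% of all clusters were higher at that limit. In that fit ifg-1 kept the lowest limma adjusted p, 0.358.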
